A study of Saccharomyces cerevisiae with 28 samples.

Results

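The csn12 deletion strain of budding yeast (Saccharomyces cerevisiae), grown to log phase at 30 °C, was compared with the wild-type strain on 2 of the 28 splicing-specific microarrays of the series. Mutant and wild-type cDNA were hybridised together on each array, with the mutant in Cy5 on array 1 and in Cy3 on array 2. Both arrays labelled csn12 in log phase were used for the csn12 values, while their errors and the dye effect also rest on the other arrays. The other 26 arrays hold 13 dye-swap pairs of the strains YPR045C, ist3, csn9, pci8 and isy1 in log phase at 30 °C, and of tgs1 and ynr004w at 30 °C and after 10, 25 and 40 min at 16 °C, each against wild type grown alike. No agent was added, and the sources used here do not state the strain background, the mating type or whether each deletion is 1 clone. Nothing says that the 2 csn12 arrays came from separate cultures, so their spread may be technical.

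Csn12 is a subunit of the yeast complex related to the COP9 signalosome, which removes the ubiquitin-like protein Rub1 from cullins. It carries a PCI domain, a fold shared by subunits of the signalosome, the proteasome lid and the translation factor eIF3. Csn12 is also known to bind Thp3, the product of YPR045C, in an assembly tied to transcription elongation and mRNA maturation, whereas Csn9 and Pci8 are other signalosome subunits. Splicing removes introns through the spliceosome, and in yeast the genes of ribosomal proteins hold a large share of all introns. Arrays of this kind probe an intron gene at its intron, at its exon junction and in an exon, so that unspliced and spliced RNA can be told apart.

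Values are log2 ratios after centring of each array on its median. They are likely mutant over wild type, because the mutant is channel 1 on every array, but direction and base of the logarithm are unstated in the sources used here. If the direction were the opposite, "higher" and "lower" would change places throughout. The deletion itself could not be checked: CSN12 (YJR084W) and its neighbours ACF4 and TMH11 had no named probe. On the csn12 arrays 9036 and 9062 of 9216 spots had a value, for 1536 probes in 6 copies each, and 982 genes were named. The median SD over the copies of a probe was 0.165 on array 1 and 0.211 on array 2.

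The 2 csn12 arrays ran against each other as deposited. Across the 982 genes they correlated at r = -0.338, and at 0.241 once the mean dye effect of the other 13 pairs was taken off. These are correlations across genes, which are not independent replicates. The gap between the 2 arrays followed the mean dye effect of the other pairs at r = 0.828. The mean of both arrays was therefore used for each gene, since a dye effect cancels in it. The 2 arrays had one sign in 348 of 982 genes, and in 493 after the dye effect was taken off.

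In the plot of both arrays, genes far from 0 in the mean, such as HSC82 and CGR1, had the same sign under either dye, which a large mean itself favours. Other genes with large array values had opposite signs, such as RRP8 (0.87 and -1.94) and MF(ALPHA)2 (1.02 and -1.61). A gene was called when its adjusted p was under 0.05 (limma with Benjamini-Hochberg adjustment over all genes). In the fit on pair means, whose spread comes from the time points of tgs1 and ynr004w at 16 °C, 361 of 982 genes were called, or 36.8%. Of these, 176 (17.9%) were higher and 185 (18.8%) lower in csn12, and 141 and 219 with the arrays centred on genes of 1 probe. A fit over single arrays with a term for dye called 46 genes (4.68%), 16 higher (1.63%) and 30 lower (3.05%). Its spread comes from the 2 arrays of each pair. Because the dye term is common to all strains, that spread also holds differences in dye effect between strains. A fit over the single arrays of csn12, YPR045C and ist3 alone, whose array numbers in the titles begin alike, called 76 (7.74%). All 46 were among the 361 and had one sign on both arrays. The median SE was 0.0648 in the first fit and 0.146 in the second, so the first understates the gap between the csn12 arrays. Of the 361 genes, 204 (20.8% of all genes) had one sign on both arrays, and 173 lay outside the range of the other 13 pairs. Of all 982 genes, 232 lay outside that range, and a call itself favours genes with a csn12 mean far from 0. "Rose" and "fell" below refer to the fit on pair means, and the adjusted p of the fit over single arrays is given as the second value. "Both fits" means these 2, and array values include the dye effect unless it is said to be taken off.

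**Figure D1:**
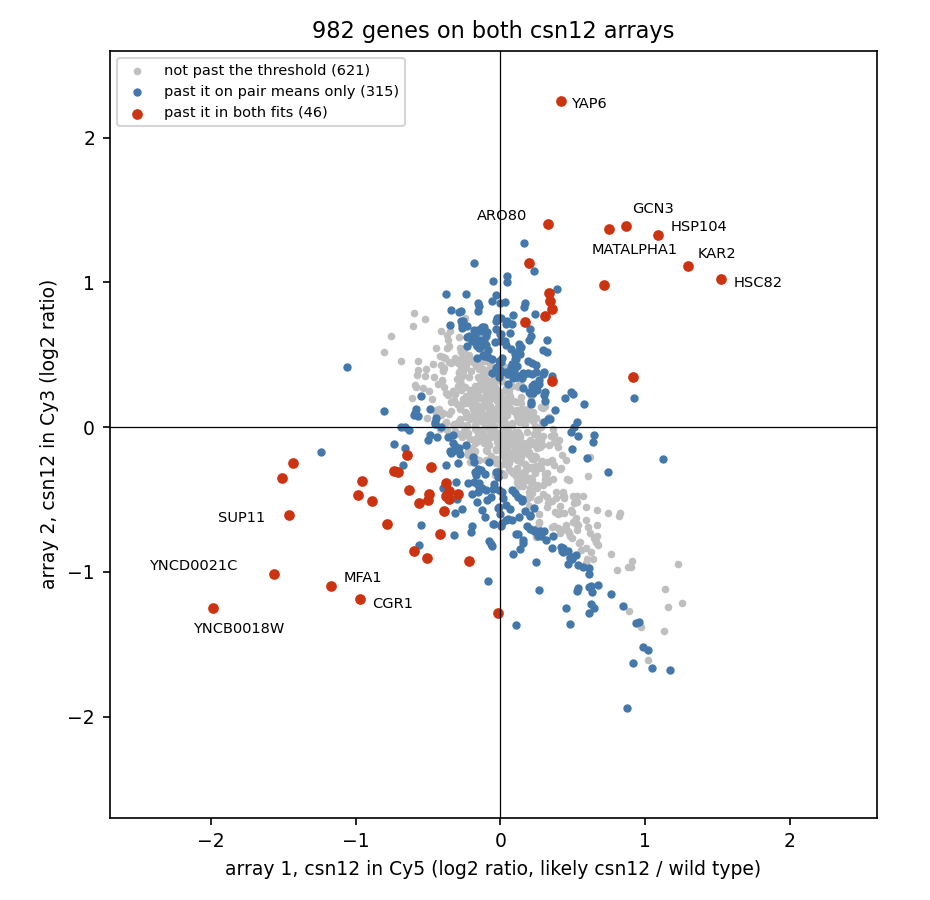
Log2 ratio of each of 982 genes on csn12 array 1 (x axis, mutant in Cy5) and array 2 (y axis, mutant in Cy3), coloured by whether the adjusted p was under 0.05 neither on pair means nor over single arrays (621 genes), on pair means only (315) or in both (46). The cloud runs from upper left to lower right (r = -0.338), and the 46 genes called in both fits lie to the upper right and the lower left.

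Among the gene lists, the largest share of rises was that of the molecular chaperones, the proteins that fold, refold or disaggregate other proteins. HSC82, the constitutive cytosolic Hsp90, stood at 1.53 on array 1 and 1.03 on array 2. HSP104, a disaggregase, stood at 1.09 and 1.33. Both genes were high under either dye, and neither array overlapped the other 13 pair means, of which the highest was 0.69 for HSC82 and 0.43 for HSP104. The pair means were 1.28 ± 0.12 (SE) for HSC82, or 2.42-fold (adjusted p = 3.89e-05, then 0.0023), and 1.21 ± 0.13 for HSP104, or 2.31-fold (8.93e-05, then 0.00058).

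SIS1, an Hsp40 co-chaperone of Hsp70, stood at 0.71 and 0.98, with a mean of 0.85 ± 0.17 (adjusted p = 0.00327, then 0.00116). The cytosolic Hsp70 gene SSA1 was at 0.92 and 0.34, and its stress-inducible relative SSA4 at 0.36 and 0.81. Each of the 3 genes was above 0 on both arrays, which the choice of SIS1 and SSA1 required. The means of SSA1 (0.63 ± 0.10) and SSA4 (0.58 ± 0.08) passed in both fits. SSA3 (0.04 and 0.71) and SSA2 (0.58 and 0.16) also rose on pair means, with second adjusted p values of 0.0645 and 0.251. The SSA genes are close copies, as are HSC82 and HSP82, and probes of such copies may read one another.

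Of the 11 measured genes of a list of cytosolic chaperones and heat shock genes, 7 rose (63.6%, against 17.9% of all genes) and 2 fell (18.2%). The list's median was 0.38, beside -0.01 for all genes, and 5 of the 7 rises and 1 of the 2 falls, that of CUP1-2, passed over single arrays. The list's median was -0.02 in YPR045C, 0.03 in ist3, 0.25 in csn9, 0.10 in pci8 and 0.37 in isy1, so isy1 was about as high as csn12. Those that fell were SSE2, an Hsp110 exchange factor, at 0.49 and -0.91 with opposite signs, and CUP1-2, at -0.48 and -0.28. SSA2, SSE2, SSB1 and the CUP1 genes were named after their values were seen. CUP1-2 encodes the copper-binding metallothionein and is no chaperone, and the identical copy CUP1-1 read 0.23 and -0.20. SSB1, an Hsp70 that sits on ribosomes, was at -0.11 and -0.06 and did not pass (adjusted p = 0.313).

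KAR2, the Hsp70 of the endoplasmic reticulum known as BiP, stood at 1.29 and 1.11. It rose by 1.20 ± 0.10, or 2.30-fold (adjusted p = 3.45e-05, then 0.00161), above the highest other pair mean of 0.29. The other measured members of the folding and unfolded protein response list did not pass. LHS1, its exchange factor, was at 0.12 and -0.04, the sensor kinase and endonuclease IRE1 at 0.02 and -0.19, and HAC1, the transcription factor whose mRNA Ire1 cuts, at -0.16 and 0.20. The list thus had 1 of 4 members called (25%, against 36.8% of all genes), with a median of 0.03.

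GCN3, the alpha subunit of the translation factor eIF2B, was high on both arrays. It stood at 0.87 and 1.39 and rose by 1.13 ± 0.08, or 2.19-fold (adjusted p = 9.86e-06, then 6.11e-05), while the other 13 pair means lay between -0.31 and 0.56. GCN4, the activator of amino acid synthesis genes whose translation eIF2B controls, fell on pair means, at -0.40 and -0.42 (mean -0.41 ± 0.06, adjusted p = 0.00074, then 0.104). Over the other 13 pairs GCN4 ran from -0.54, in csn9, to 0.64, in isy1, and it was at -0.48 in pci8. Among the 7 measured genes of that pathway 2 rose and 2 fell (28.6% each way, against 17.9% and 18.8% of all genes), the others called being the acetyltransferase GCN5 (0.08 and 0.41) and the Gcn2 activator GCN20 (-0.32 and -0.13). TIF5 (eIF5), GCN1 and GCN2 did not pass, with means of 0.21, 0.14 and 0.05.

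The other genes among the highest 15 belong to no single list. YAP6, a bZIP factor, had the highest mean of all genes at 1.33 ± 0.10, or 2.52-fold (adjusted p = 1.79e-05, then 0.00537), but it read 0.42 on array 1 and 2.25 on array 2. ARO80, the activator of aromatic amino acid catabolism, read 0.33 and 1.40. AFT1, the iron regulon activator, read 0.20 and 1.13. These 3 genes were above 0 on both arrays, as their choice required. They were higher on array 2 also after the dye effect was taken off, and passed in both fits. ABF1, a general regulatory factor (0.39 and 0.95), MIG3, a repressor of the Mig family (0.23 and 1.08), and ITT1, which modulates translation termination (0.16 and 1.27), rose on pair means but not over single arrays, with second adjusted p values of 0.062, 0.102 and 0.277. ABF1 and ITT1 also passed with csn12, YPR045C and ist3 arrays alone. NMA1, an enzyme of NAD synthesis, passed both fits at 0.34 and 0.93 (mean 0.63 ± 0.06), as did CCS1, the copper chaperone of superoxide dismutase, at 0.34 and 0.87 (mean 0.61 ± 0.07).

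**Figure D2:**
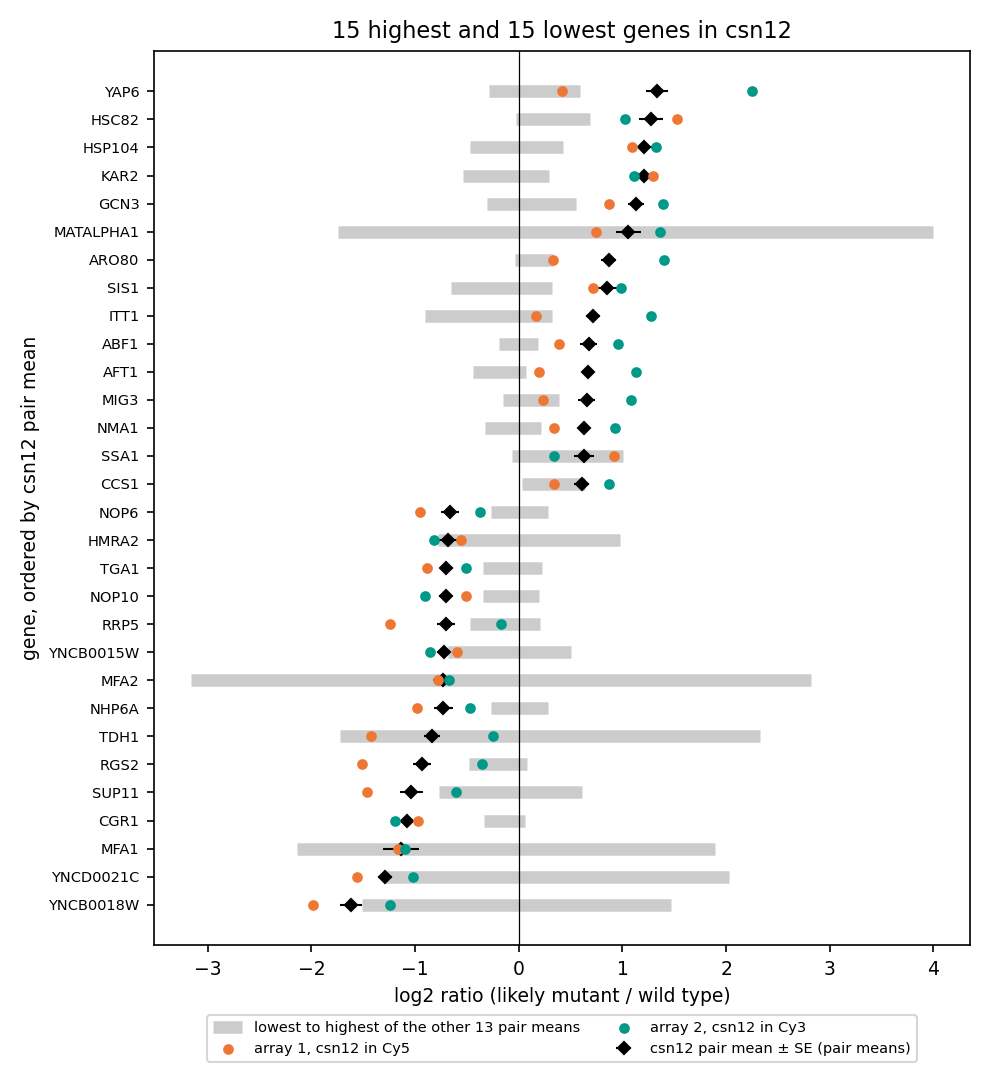
Log2 ratio (x axis) on array 1, on array 2 and as the pair mean ± SE of the 15 highest and 15 lowest called genes with one sign on both csn12 arrays (y axis), with the range of the other 13 pair means as a grey bar. HSC82, HSP104, KAR2 and CGR1 lie far outside that range on both arrays, whereas the grey bars of MATALPHA1, MFA1, MFA2 and TDH1 reach past the csn12 values on either side.

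The 2 genes that fell furthest encode tRNAs, the adaptors of translation. YNCB0018W stood at -1.98 and -1.25, the lowest mean of all genes at -1.62 ± 0.11, or 3.06-fold lower (adjusted p = 7e-06, then 9.35e-05). YNCD0021C stood at -1.57 and -1.02 and fell by 1.29 ± 0.06 (1.22e-06, then 0.000102). SUP11, at -1.46 and -0.61, TGA1, at -0.88 and -0.51, and YNCB0015W, at -0.60 and -0.85, also fell in both fits. All 5 were low under either dye. Low values of the first pair were not found in csn12 alone, since YNCB0018W was at -1.51 in pci8 and -0.87 in csn9, and YNCD0021C at -1.30 and -0.93, while both were high in isy1, at 1.47 and 2.03. SUP11 was at -0.77 in pci8, -0.73 in csn9 and 0.61 in isy1, and YNCB0015W at -0.68 in ist3 and 0.50 in isy1.

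Of 40 measured nuclear tRNA genes 17 fell (42.5%, against 18.8% of all genes) and 1 rose, SUP61, named after its values were seen, at 0.44 and 0.20. Over single arrays 6 passed, all lower. The list's median was -0.13, and its array medians were -0.02 and -0.38, or -0.04 and -0.31 with the dye effect taken off. The same list had a median of -0.11 in YPR045C, -0.19 in ist3, -0.11 in csn9, -0.23 in pci8 and 0.31 in isy1. Of the 24 mitochondrial tRNA genes 6 fell (25.0%) and 1 rose, tA(UGC)Q, which had opposite signs on the arrays (1.12 and -0.22). Only tM(CAU)Q2, at -0.01 and -1.28, passed over single arrays, and it was at -0.68 and -0.62 with the dye effect taken off. tRNAs are copied poorly into cDNA and have near-identical gene copies, so which tRNA a probe reads is uncertain.

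Genes of ribosome assembly fell more often than they rose. CGR1, a nucleolar protein of rRNA processing, stood at -0.97 and -1.19 and fell by 1.08 ± 0.06, or 2.11-fold (adjusted p = 2.09e-06, then 6.11e-05), with the other 13 pair means between -0.34 and 0.06. NOP10, a core protein of box H/ACA snoRNPs, stood at -0.51 and -0.90 (mean -0.70 ± 0.06). NSR1, the yeast nucleolin, chosen after its values were seen, stood at -0.29 and -0.46. These 3 genes passed in both fits.

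RRP5, which acts in the synthesis of both subunits' rRNA, was at -1.24 and -0.17, and its second adjusted p was 0.177. RRP8, an rRNA methyltransferase, fell on pair means (-0.53) but had opposite signs on the arrays, 0.87 and -1.94. Among the 52 measured members of the list, 15 fell (28.8%, against 18.8% of all genes) and 8 rose (15.4%, against 17.9%), with a median of -0.08. The list's array medians differed in sign, at -0.14 and 0.02, or 0.04 and -0.15 with the dye effect taken off. NOP6, an rRNA-binding protein outside that list, was at -0.96 and -0.37 and passed in both fits.

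Ribosomal protein genes were near wild type as a group in their gene means. Of 53 genes of the small subunit 7 fell (13.2%) and 5 rose (9.43%), and of 72 of the large subunit 17 fell (23.6%) and 6 rose (8.33%), against 18.8% and 17.9% of all genes. Both medians were -0.01. Over single arrays 5 of the small and 3 of the large subunit were lower, and none of either was higher, while 7 and 18 had an unadjusted p under 0.05. RPS28A was at -0.56 and -0.53, RPS30A at -0.74 and -0.30, RPS10B at -0.63 and -0.43, and RPS10A at -0.36 and -0.50. RPL39 was at -0.71 and -0.31 and RPL36A at -0.49 and -0.47. These 6 genes were below 0 on both arrays and passed in both fits, with means between -0.55 and -0.43. RPS28A has 1 probe and the others 3 each. Their gene means can hide differences between probes, as described below for RPL39 and RPS10A. Ribosomal protein genes mostly have a near-identical copy, so a value may hold signal of both copies.

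Other low genes had single probes. RGS2, a negative regulator of glucose-induced cAMP signalling, stood at -1.51 and -0.35 (mean -0.93 ± 0.09, adjusted p = 3.89e-05, then 0.0114). NHP6A, an HMG-box chromatin protein, was at -0.99 and -0.47. TDH1, an isoform of glyceraldehyde-3-phosphate dehydrogenase, was at -1.43 and -0.25, and the other 13 pair means ran from -1.72 to 2.33. GPD1, of glycerol synthesis, rose slightly, at 0.36 and 0.32 (mean 0.34 ± 0.12). Chosen after their values were seen, the nuclear import receptors KAP123 (-0.50 and -0.51) and PSE1 (-0.21 and -0.92) also fell in both fits, and the nucleoporin gene SEH1 (0.31 and 0.77) rose in both.

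Mating type genes, which mark a and alpha cells, differed from wild type in csn12. The a-factor genes MFA1 (-1.17 and -1.10) and MFA2 (-0.78 and -0.67) were both low, by 1.13 ± 0.17 and 0.73 ± 0.10 in the mean, and passed in both fits. The alpha-cell regulator MATALPHA1 was high, at 0.75 and 1.37, but its partner MATALPHA2 fell on pair means, at -0.31 and -0.59, and HMRA2, at the silent a locus, was at -0.56 and -0.81. The alpha-cell genes MF(ALPHA)1 (0.24 and -0.11), STE3 (0.37 and -0.26) and MF(ALPHA)2 (1.02 and -1.61) had opposite signs on the 2 arrays and did not pass. Of 7 genes of the pheromone response 2 rose (28.6%, against 17.9% of all genes), the kinase KSS1 (0.17 and 0.86) and the regulator KAR4 (0.37 and 0.12), while STE11, STE12, SST2, FUS3 and STE7 had means between -0.12 and 0.12. In the other 13 pairs MF(ALPHA)1 ran from -5.04 to 5.24 and MFA2 from -3.16 to 2.82. Whether the mating types of mutant and wild type play a part in the csn12 values was not tested.

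The genes of the splicing machinery were called about as often as all genes. Among 36 measured genes of the U1 and U2 snRNPs, cap binding and branch point recognition, 6 rose and 8 fell (38.9% called, against 36.8% of all genes; median 0.05). Among 52 of the tri-snRNP and later splicing factors 8 rose and 10 fell (34.6%; median 0.0034). SMB1, which encodes a core protein of the Sm ring, was at -0.36 and -0.44 and passed in both fits. SMD3 (-0.07 and -0.81), LSM4 (-0.05 and -0.82), LSM7 (-0.05 and -0.67) and the helicase PRP43 (-0.67 and -0.26) fell on pair means but not over single arrays. PRP39 of the U1 snRNP (0.04 and 1.05), MSL1 of the U2 snRNP (-0.03 and 0.91) and the helicase PRP16 (-0.15 and 0.84) rose on pair means but not over single arrays. With the dye effect taken off, PRP39 was at 0.61 and 0.48, MSL1 at 0.30 and 0.59 and PRP16 at 0.34 and 0.35, so all 3 were above 0 on both arrays.

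Among 22 genes of mRNA export 5 rose and 3 fell (36.4%, median 0.05), and among 36 of mRNA decay 5 rose and 4 fell (25.0%, median -0.02). Of all genes 36.8% were called. The limma fit over single arrays called none of either list, while 3 and 2 of them had an unadjusted p under 0.05. The export helicase DBP5 (-0.20 and -0.73) and the THO subunit THO2 (0.12 and -0.74) fell on pair means. HPR1, another THO subunit, rose slightly (-0.03 and 0.41), as did the import receptor MTR10 (-0.29 and 0.80). In the decay list the exosome subunits CSL4 (0.22 and 0.44) and DIS3 (-0.66 and -0.0007) went opposite ways, AIR1 of the TRAMP complex rose (0.53 and 0.03) and PAT1, an activator of decapping, fell with opposite signs (0.62 and -1.22).

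Of the signalosome and Rub1 list 3 genes were measured. UBC12, the enzyme that conjugates Rub1, fell on pair means (-0.05 and -0.43, adjusted p = 0.00927, then 0.58). RUB1 itself (0.12 and -0.40) and DCN1, its ligase (0.26 and -0.42), had opposite signs on the 2 arrays and did not pass. Of the histone genes measured, HTA1 rose on pair means (0.49 and 0.24) and the linker histone gene HHO1 did not pass (-0.07 and 0.15). HTA1 was at 0.37 in csn9, 0.60 in pci8 and -1.19 in isy1.

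**Figure D3:**
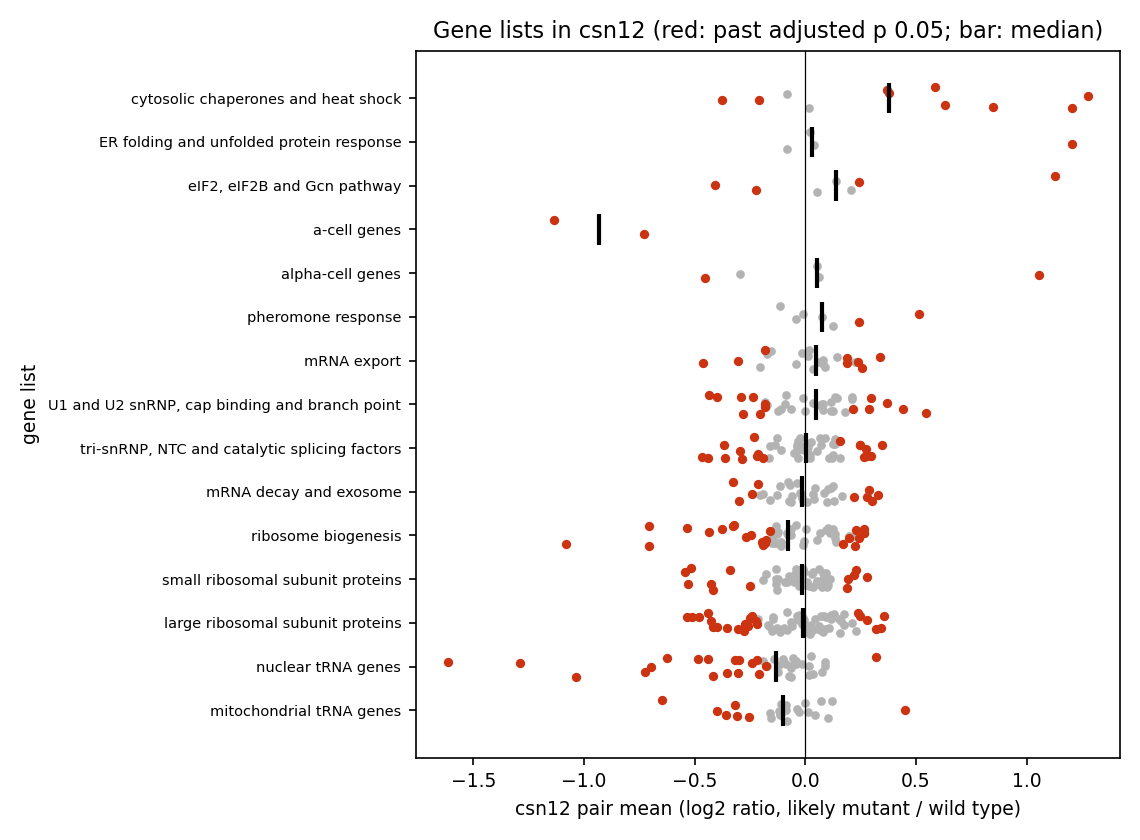
Pair mean in csn12 (x axis, log2 ratio) of each measured gene of 15 gene lists (y axis), red where the adjusted p on pair means was under 0.05, with the list's median as a black bar. The chaperone list lies to the right of 0 (median 0.38) and the nuclear tRNA list to the left (median -0.13), while both splicing lists are centred near 0.

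For 231 genes the array holds 3 or more probes, and these did not move together. In 229 of them 2 probes had fixed neighbouring places in the order in which the array was printed, and the class letters rest on this. Of the 2 linked probes, print order fixed by the same rule in every gene which was class A and which class B, and the remaining ones were class C. The direction of that rule was chosen so that class A tended to be the higher one in ist3, isy1, tgs1 and ynr004w. It was not chosen gene by gene, so single genes can go the other way in those strains. The letters were given after those strains' values were seen, with no csn12 value used. The sources used here do not say what each class probes. Per probe, 478 of 1535 were called in csn12 (31.1%), 202 higher (13.2%) and 276 lower (18.0%), or 160 and 311 with the arrays centred on genes of 1 probe. Over single arrays 81 were called (5.28%), 24 higher (1.56%) and 57 lower (3.71%), and with csn12, YPR045C and ist3 arrays alone 96 (6.25%).

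Probes of class C fell more often than they rose in csn12. Among 237 of them 62 fell (26.2%) and 16 rose (6.75%), with a median of -0.08. Of the 229 class B probes 42 fell (18.3%) and 21 rose (9.17%), with a median of -0.03. Of the 229 class A probes 21 fell (9.17%) and 29 rose (12.7%), with a median of 0.04. The fit over single arrays called 14 class B and 14 class C probes lower, and 3 class A, 4 class B and 1 class C probes higher. After the dye effect was taken off, the medians of class C were -0.01 on array 1 and -0.16 on array 2, and those of class A 0.04 and 0.06.

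The class contrast, the class A value minus the mean of classes B and C of the same gene, had a median of 0.12 over 228 genes and was above 0 in 157 (68.9%). It was -0.07 on array 1 and 0.30 on array 2 as centred, and 0.06 and 0.16 after the dye effect was taken off. With the arrays scaled to one spread the median was 0.08. In the 96 ribosomal protein genes it was 0.14 and in the other 132 genes 0.09. On pair means the contrast passed in 57 genes (25.0%), 44 higher (19.3%) and 13 lower (5.7%). Of these 57, 17 lay outside the range of the other 13 pairs, as did 37 of all 228 genes. Over single arrays 10 passed (4.39%), 9 higher (3.95%) and 1 lower (0.439%), and with csn12, YPR045C and ist3 arrays alone 14 (6.14%).

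DBP2, an RNA helicase gene known for its long intron, had the highest contrast at 1.09 and 1.43, a mean of 1.26 ± 0.12 (adjusted p = 9.47e-06, then 3.39e-06). Its class A probe was at 0.49 and 0.82, its class B probe at -0.53 and -0.55 and its class C probe at -0.67 and -0.66. The 3 probes thus went apart in the same way under either dye, and the mean over them, -0.18, shows none of it. In the other strains the DBP2 contrast reached at most 0.99, in ist3.

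RPL39 had a contrast of 0.92 and 1.07, with class A at -0.10 and 0.40 and class C at -1.41 and -1.002. RPL30, whose protein is known to bind its own transcript and block its splicing, had 0.59 and 1.28, with class A at -0.02 and 0.84 and class C at -0.74 and -0.63. RPS10A had 1.19 and 0.50, with class A at 0.44 and -0.17 and class C at -0.78 and -0.83. In these 3 genes class C was below 0 on both arrays while class A changed sign between them, and the contrasts passed in both fits (means 0.99 ± 0.15, 0.94 ± 0.15 and 0.84 ± 0.11).

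IMD4, of the IMP dehydrogenase family of guanine nucleotide synthesis, had a contrast of 0.87 and 0.79 with class A above 0 (0.17 and 0.53) and class B below it (-0.78 and -0.37). RPL42A (0.88 and 0.61) and RPL35A (0.12 and 1.298) also passed in both fits, and RPS30B (0.75 and 0.76) on pair means but not over single arrays (second adjusted p = 0.274). In ist3 these contrasts were higher than in csn12, at 1.63 for IMD4, 1.22 for RPL42A, 2.12 for RPL35A and 1.90 for RPS30B. IMD4 was also higher in YPR045C, at 1.13. Copies of a pair were alike in some cases. Named after their values were seen, RPL42B was at 0.73 and 0.57, RPS10B at 0.73 and 0.45 and RPS30A at 0.30 and 0.92, whereas RPL35B was at -0.12 and 0.01. VMA10, a subunit of the vacuolar ATPase named likewise, was at 0.94 and 0.37 with all its class means below 0, and its contrast passed in both fits, as did that of RPL42B.

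The contrast was negative and past the threshold with one sign on both arrays in 6 genes. RPL7B was the only one that passed over single arrays, at -0.43 and -0.82 (mean -0.63 ± 0.13, adjusted p = 0.004, then 0.0454), and its class B probe was at 0.66 and 0.71. DMC1, a meiotic recombinase, had the lowest mean at -0.69 ± 0.11 (-0.43 and -0.95). ARF2 and ERD2, of vesicle traffic, were at -0.44 and -0.43. YRA1, an mRNA export factor that controls its own splicing, was at -0.42 (-0.23 and -0.61). HAC1, whose intron Ire1 and tRNA ligase remove without the spliceosome, was at -0.37 (-0.27 and -0.47). Since only 6 genes met the terms, the lowest 8 also take in RPL37B and MTR2, whose contrasts of 0.32 and 0.31 were above 0.

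**Figure D4:**
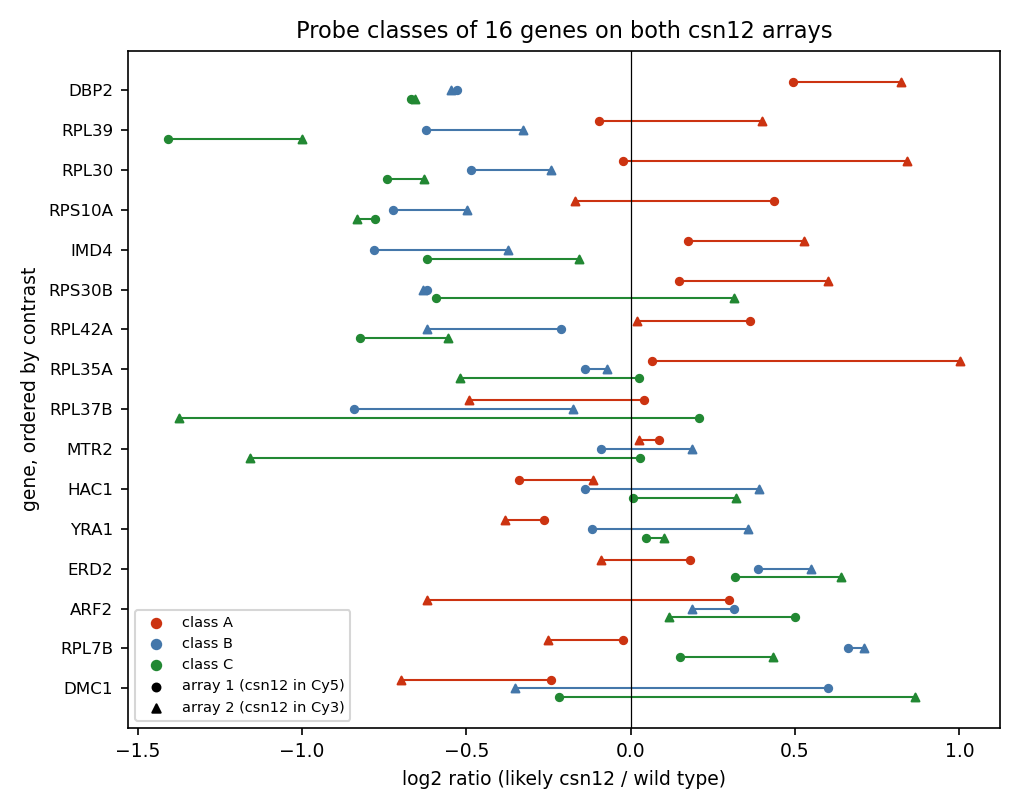
Log2 ratio (x axis) of the probe classes A, B and C of 16 genes (y axis, ordered by contrast) on csn12 array 1 (circles) and array 2 (triangles), joined by a line. In DBP2 class A lies above 0 and classes B and C below it on both arrays, while in RPL7B class B lies above class A.

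Set beside the other strains, the median csn12 contrast was nearest to that of YPR045C, at 0.19, with tgs1 and ynr004w at 30 °C close behind at 0.20 and 0.23. With the dye effect taken off, the contrasts of the 2 arrays correlated across genes at r = -0.15 in YPR045C and 0.19 in csn12. The median in ist3, which lacks a protein of the U2 snRNP, was 0.54, and the medians in csn9 and pci8 were -0.10 and -0.08. The strains ist3, isy1, tgs1 and ynr004w helped to fix the class letters, so their medians are no independent measure. The array numbers in the titles of csn12 and YPR045C begin like those of ist3, and those of csn9 and pci8 begin alike in another way, so strain and array series cannot be told apart in the comparisons with csn9 and pci8. The csn9 and pci8 arrays had smaller dye effects. Their median half-gap between the arrays of a pair was 0.107 and 0.116 per gene, against 0.215 in csn12. With the mean dye effect of the other pairs taken off, it was 0.205 in csn9, 0.161 in pci8 and 0.130 in csn12.

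The difference itself was tested gene by gene. Between csn12 and YPR045C the contrast differed in 6 of 228 genes (2.63%), 2 higher (0.877%) and 4 lower (1.75%) in csn12. The limma fit over single arrays called 0 (0.0%), while 12 had an unadjusted p under 0.05, and the median difference was -0.06. Against csn9 it differed in 40 genes (17.5%), 38 higher (16.7%) and 2 lower (0.877%) in csn12. Against pci8 it differed in 47 (20.6%), 43 higher (18.9%) and 4 lower (1.75%). The median differences were 0.24 and 0.18. Over single arrays 4 (1.75%) and 7 (3.07%) passed, all higher in csn12. Of the contrasts that differed, 3 were named after their values were seen. DBP2 differed from csn9 by 1.37 ± 0.17 and from pci8 by 1.503 ± 0.17, VMA10 by 1.05 ± 0.15 and 1.19 ± 0.15, and IMD4 by 1.32 ± 0.21 and 0.98 ± 0.21. DBP2 was also higher than in YPR045C, by 0.76 ± 0.17 (adjusted p = 0.0315, then 0.164).

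**Figure D5:**
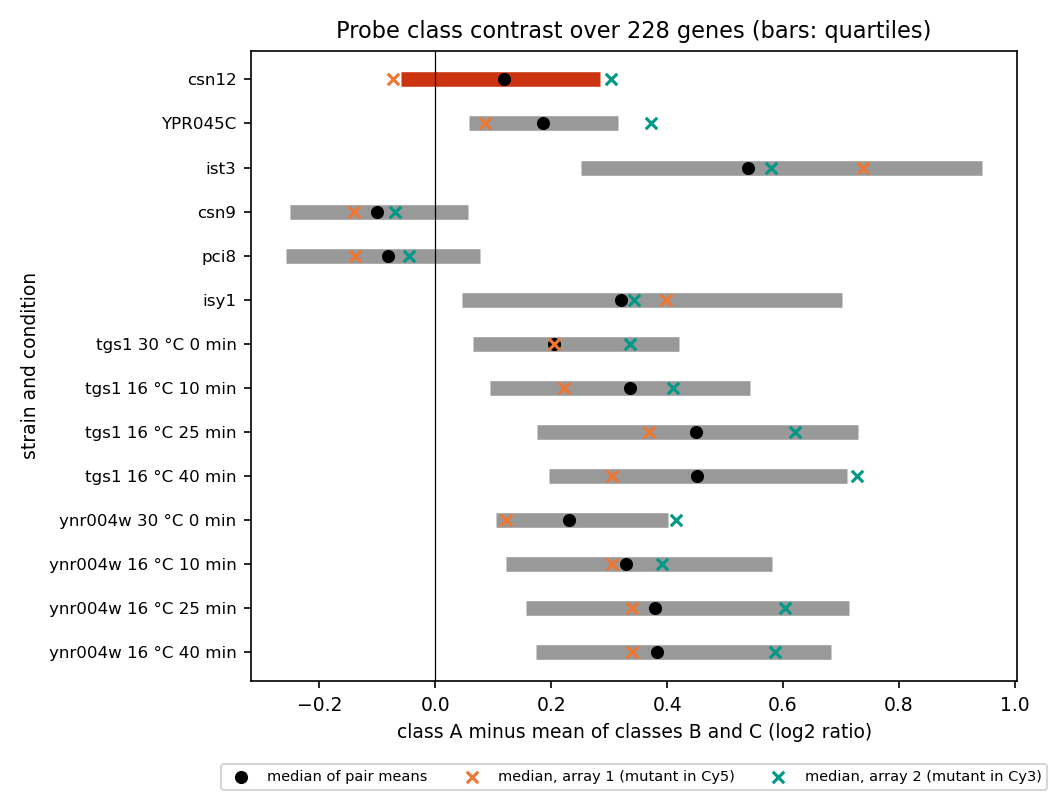
Class A minus the mean of classes B and C (x axis, log2 ratio) over 228 genes in each of the 14 strain and temperature conditions (y axis), as the quartiles (bars), the median of the pair means (dots) and the medians of both arrays (crosses). The csn12 median of 0.12 lies between YPR045C at 0.19 and csn9 and pci8 at -0.10 and -0.08, and its arrays lie at -0.07 and 0.30.

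Gene levels were compared with the same 3 strains. On pair means 138 genes differed between csn12 and YPR045C (14.1%), 67 higher (6.82%) and 71 lower (7.23%) in csn12. Against csn9 241 differed (24.5%), 115 higher (11.7%) and 126 lower (12.8%). Against pci8 242 differed (24.6%), 121 in each direction (12.3%). Over single arrays 17 (1.73%), 8 (0.815%) and 9 (0.916%) differed. With the arrays centred on genes of 1 probe, the splits against csn9 and pci8 became 87 higher and 158 lower, and 93 higher and 154 lower. Each strain was set against its own co-hybridised wild type, and the sources used here do not say whether these wild-type samples were shared.

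Of the 11 chaperone and heat shock genes 6 were higher and 1 lower in csn12 than in YPR045C, 4 higher and 1 lower than in csn9, and 4 higher and 1 lower than in pci8. The shares higher were 54.5%, 36.4% and 36.4%, against 6.82%, 11.7% and 12.3% of all genes. Over single arrays only HSP104 and SIS1 were higher, against YPR045C, while CUP1-2 was lower against each of the 3 strains. HSC82 was at 0.09 in YPR045C, 0.43 in csn9 and 0.17 in pci8, against 1.28 in csn12. HSP104 was at 0.08, 0.35 and 0.43 in the same order, against 1.21. GCN3 differed from YPR045C by 1.25 ± 0.11 and from csn9 by 1.07 ± 0.11, in both fits. It was also higher in both fits than in pci8, where it stood at 0.25. CGR1 was lower in csn12 than in csn9, by 0.89 ± 0.09, and than in pci8, by 0.95 ± 0.09, in both fits. It was also lower in both fits than in YPR045C, where it stood at -0.10. For the nuclear tRNA genes the counts were 7 lower (17.5%) and 0 higher against YPR045C. They were 8 lower (20%) and 4 higher (10.0%) against csn9, and 4 lower (10.0%) and 7 higher (17.5%) against pci8. Of all genes 7.23%, 12.8% and 12.3% were lower in the same order of strains, and 6.82%, 11.7% and 12.3% higher. The 3 that passed over single arrays were all lower than in YPR045C. Against YPR045C, 5 of the small (9.43%) and 7 of the large subunit's ribosomal protein genes (9.72%) were lower, near 7.23% of all genes. RPS30A alone of them passed over single arrays. Against csn9, 12 of the small (22.6%) and 10 of the large subunit (13.9%) were lower, and 2 and 0 higher. Against pci8, 14 (26.4%) and 10 (13.9%) were lower, and 3 and 4 higher. Of all genes 12.8% and 12.3% were lower than in csn9 and pci8. Over single arrays RPS30A and RPL37A were lower than in csn9, and RPL37A than in pci8.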

How the data were processed

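The deposited table gives 1 log ratio per spot and array, used as the authors made it and taken to be log2. The sources used here give no scanner, background correction, normalization, log base or direction, so fold values rest on the assumed base. Depth does not apply to arrays, whose number limits the precision. RNA was extracted with acid phenol and labelled through aminoallyl-dUTP, per the labels' protocols. After each array's median had been subtracted, means were taken over the 6 copies of a probe, then over the dye-swap pair, then over a gene's probes, and limma 3.58.1 in R 4.3.3 (lmFit, eBayes) was fitted to the 14 pair means, as 10 groups by strain and temperature, with 4 residual degrees of freedom. The csn12 group holds 1 pair, so it is assumed to vary like the pairs at 16 °C. A second fit over 28 arrays had 1 term per pair and 1 for dye, with 13 residual degrees of freedom. Another fit used only csn12, YPR045C and ist3, whose array numbers in the titles begin alike, with 2. The same array number in different strains marks a dye orientation, not a shared culture, so the dye term is also the replicate block. Tests were 2-sided, adjusted by Benjamini-Hochberg over all genes, probes or contrasts at 0.05. All 982 gene identifiers matched the RefSeq table of assembly R64. Of 1536 probes 1457 had 1 symbol, 79 none and none several, and the last 79 stay out of gene results. For 1 probe, the class C probe of BIG1, a pair had no value, and it was left out.

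The strain, the gene lists and the tests were chosen with earlier results of these data known. Named genes were the deleted gene and its neighbours, the 15 highest and 15 lowest called genes with one sign on both arrays, up to 4 members of each list by adjusted p or all of a list of 10 or fewer, the 8 highest and 8 lowest class contrasts and, for differences between strains, the 4 highest and 4 lowest whose arrays did not overlap; further genes are marked where they appear. Classes A and B were linked by the filling order of the printing plates, 1 or 3 steps apart, in 94 and 135 genes; RPL14A and RPS16A had no linked probes. The scripts were tested on simulated data. Alternatives covered the fit, centring, scaling, averaging, missing spots, left-out arrays and pairs, and, added after the data were seen, gene means without class A, a stricter link between probes, and each csn12 array alone.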

Additional observations from a re-analysis of the deposited data

Results flagged for a closer look

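The following differences between csn12 and another strain passed on pair means with arrays that did not overlap, and each is the csn12 log2 ratio minus that of the other strain; the limma fit over single arrays is named where it also passed. Against YPR045C the gaps were widest in mating type genes. MFA2 differed by 2.43, MF(ALPHA)1 by -4.78, MF(ALPHA)2 by -3.31, MATALPHA1 by -2.94 and STE3 by -2.66, all in both fits, and YPR045C itself stood at -3.16 for MFA2 and 4.84 for MF(ALPHA)1. GCN3 differed from YPR045C by 1.25 and HSP104 by 1.13 in both fits, and HSC82 by 1.19 on pair means.

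Against csn9, ITT1 differed by 1.63, YAP6 by 1.62, KAR2 by 1.06, TDH1 by -0.90 and MFA1 by -0.82 on pair means only, and GCN3 by 1.07, CGR1 by -0.89 and RPL37A by -0.78 in both fits. ITT1 stood at -0.91 in csn9.

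Against pci8, KAR2 differed by 1.33, AFT1 by 1.11, CGR1 by -0.95 and RPL37A by -0.91 in both fits. YAP6 differed by 1.39, HSC82 by 1.10, TDH1 by -0.93 and the tRNA gene YNCB0015W by -0.91 on pair means only. RPL37A was at -0.40 in csn12, 0.38 in csn9 and 0.52 in pci8.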

How the results depend on the processing

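The size of every count depends on where the spread is taken from. With the dye term as replicate block, in the fit over single arrays, the counts of called genes, probes and contrasts in csn12 fell from 361, 478 and 57 to 46, 81 and 10, and those of genes apart from YPR045C, csn9 and pci8 from 138, 241 and 242 to 17, 8 and 9; of 136 named results 114 were past the threshold on pair means, of which 58 stayed past it and 56 lost it. With csn12, YPR045C and ist3 arrays alone they were 76, 96 and 14, and 17 against YPR045C. Scaled to one spread, 421 genes differed from pci8. Leaving out 1 csn12 array or 1 pair at 16 °C gave 11 to 404 genes, 20 to 507 probes, 2 to 80 contrasts, 10 to 158, 0 to 272 and 2 to 281 genes against YPR045C, csn9 and pci8, and a median contrast of 0.0558 to 0.158. The lowest counts come from either csn12 array alone: 11 genes without array 1 and 13 without array 2. The 0 is limma without csn12 array 2, where 71 genes had an unadjusted p under 0.05. Without array 1 and without array 2, HPR1 was at -0.042 and 0.42, PAT1 at -0.95 and 0.35, tH(GUG)Q at -0.76 and 0.040, RRP8 at -1.32 and 0.25, the MTR2 contrast at 0.71 and -0.085 and the ERD2 contrast at 0.0066 and -0.87. The cause was not tested. Centring, averaging, the filter on copies, gene means without class A and the stricter link turned none of the named results around.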

Other observations

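Of the 79 probes with no gene name 32 were called in csn12 on pair means (40.5%, against 31.1% of all probes), 9 higher and 23 lower. Their values ran from -1.05 to 0.66, and 9 passed over single arrays. Called genes were more frequent among the 747 genes with 1 probe (41.2%, 156 higher and 152 lower) than among the 231 with 3 or more (22.5%, 19 higher and 33 lower). Among the 117 measured intron genes outside the ribosomal proteins 11 rose and 11 fell as gene means, with a median of -0.04. That is 9.40% each way, against 17.9% and 18.8% of all genes. The contrast of class B with class C had a median of 0.05 and passed in 40 of 228 genes (17.5%), 26 higher and 14 lower. Among 9 genes of glycolysis, glycerol synthesis and their regulators 2 rose and 2 fell (22.2% each way, against 17.9% and 18.8% of all genes), PGK1, which encodes phosphoglycerate kinase, being at 0.14 and 0.29 without passing (adjusted p = 0.127).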
